A study of Mus musculus with 6 samples.

Results

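The 10 genes described here encode heat shock chaperones, and they were chosen by name: Hspa1a, Hspa1b, Hspa5, Hspa8, Hsp90aa1, Hsp90ab1, Hspd1, Hspe1, Hsph1 and Dnajb1. They are 10 of 21887 protein-coding genes, and of 49943 genes in all, in the RefSeq annotation of GRCm38.p6, the assembly that mm10 names. A peak was counted at a gene when its summit, the base of highest enrichment, lay inside the gene body or within 1000 bp of an end of it.

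DNA ends were mapped by BrITL in mouse embryonic fibroblasts: ends in permeabilised cells were labelled with a biotinylated dideoxynucleotide, the labelled DNA was captured on streptavidin beads, and the captured DNA was sequenced. All cells carried 1 mutant copy of Atr (ATR+/-), had been immortalised by passage and expressed Bcl-xL, a protein that blocks apoptosis, so the vehicle controls shared these features. The vehicle group was kept in DMSO for 18 h. The other group, called treated below, was kept for the same time in ATR-45 at 1 µM, which inhibits the checkpoint kinase ATR, together with aphidicolin at 0.2 µM, which blocks replicative DNA polymerases. There were 2 pull-downs and 1 input per group, and the deposited files hold 1 pooled peak list for each. No value below has a replicate error, no p-value is given, and differences between the lists compare these lists and not the conditions. Peak lists hold no RNA values, so the labelled cell type was not checked against marker genes, and the libraries' total depth was not known. The DMSO list held 6444 peaks and the treated list 491, and their lowest −log10 q values were 18.5 and 3.38, so absence from a list does not mean that a gene had no ends.

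Chaperones bind proteins that are not yet folded or have lost their fold. Some are made in every cell (Hspa8, Hsp90ab1), while others are made in large amounts within minutes of heat or proteotoxic stress (Hspa1a, Hspa1b). Heat shock factor 1 binds heat shock elements, which are inverted repeats of GAA units, in the promoters of the inducible genes, where RNA polymerase II is held paused before stress. Chaperones of the endoplasmic reticulum such as Hspa5 answer instead to the unfolded protein response, through the ER stress response element.

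Promoter sequence is shown first, since the peaks described below lay at gene ends, which were starts wherever the strand was known. RefSeq windows (build GRCm38.p6), which run from 250 bases before to 50 bases after a gene's start, were found for 7 of the 10 genes. Hspa8, Hsp90aa1 and Hsp90ab1 were not matched. The windows of Hspa5 (chr2:34771840-34772139, plus strand), Hspe1 (chr1:55087898-55088197, plus strand) and Hsph1 (chr5:149636287-149636586, minus strand) are printed because they lie under DMSO peaks and hold a stress element. Capitals mark heat shock elements (GAANNTTCNNGAA, GAANNTTC or TTCNNGAA) and the ER stress response element (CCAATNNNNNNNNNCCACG) on either strand, where N is any base. The 3-unit element contains the shorter ones, so these matches overlap. Only exact matches were sought, so sequences that differ from these patterns by even a single base are not marked.
Hspa5: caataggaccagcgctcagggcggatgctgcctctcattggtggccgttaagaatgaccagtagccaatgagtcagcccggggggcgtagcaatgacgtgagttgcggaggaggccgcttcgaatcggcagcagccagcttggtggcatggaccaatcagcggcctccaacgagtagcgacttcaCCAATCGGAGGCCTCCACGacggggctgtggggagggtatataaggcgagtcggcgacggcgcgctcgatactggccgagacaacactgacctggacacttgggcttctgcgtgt
Hspe1: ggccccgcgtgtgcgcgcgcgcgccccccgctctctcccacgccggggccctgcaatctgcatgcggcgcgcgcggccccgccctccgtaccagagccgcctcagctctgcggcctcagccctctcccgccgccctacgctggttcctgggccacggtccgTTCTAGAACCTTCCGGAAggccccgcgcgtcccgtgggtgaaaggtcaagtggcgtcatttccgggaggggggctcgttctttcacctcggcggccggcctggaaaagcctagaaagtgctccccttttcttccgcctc
Hsph1: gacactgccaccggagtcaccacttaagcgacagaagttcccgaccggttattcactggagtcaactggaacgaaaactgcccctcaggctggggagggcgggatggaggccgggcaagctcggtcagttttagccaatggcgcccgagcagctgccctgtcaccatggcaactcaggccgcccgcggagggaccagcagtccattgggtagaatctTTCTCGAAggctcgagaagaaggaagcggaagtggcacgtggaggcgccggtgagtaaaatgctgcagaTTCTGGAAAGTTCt

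In the Hspa5 window the capitals are 1 exact match of the ER stress response element, 65 to 47 bases upstream of the start. In the Hspe1 window they are a run of 18 bases, 89 to 72 bases upstream, in which 2 matches of the 3-unit heat shock element overlap. The same run stands on the other strand in a window of Hspd1, 144 to 127 bases upstream of the inner of the 2 annotated Hspd1 starts. In the Hsph1 window they are a 2-unit element 33 to 26 bases upstream and a 3-unit element 36 to 48 bases downstream of the start. Over the outermost window of each of 17492 protein-coding genes, the 3-unit heat shock element was found in 0.480%, GAANNTTC in 7.35%, TTCNNGAA in 7.64% and the ER stress response element in 0.160%.

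The windows of Hspa1a (chr17:34972107-34972406, minus strand) and Hspa1b (chr17:34959189-34959488, minus strand) are printed because these near copies were the members with no peak. Capitals again mark heat shock elements.
Hspa1a: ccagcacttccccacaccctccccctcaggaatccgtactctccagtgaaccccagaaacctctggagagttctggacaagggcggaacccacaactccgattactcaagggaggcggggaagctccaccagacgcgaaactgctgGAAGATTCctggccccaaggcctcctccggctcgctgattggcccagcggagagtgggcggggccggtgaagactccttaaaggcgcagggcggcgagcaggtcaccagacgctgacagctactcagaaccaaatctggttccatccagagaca
Hspa1b: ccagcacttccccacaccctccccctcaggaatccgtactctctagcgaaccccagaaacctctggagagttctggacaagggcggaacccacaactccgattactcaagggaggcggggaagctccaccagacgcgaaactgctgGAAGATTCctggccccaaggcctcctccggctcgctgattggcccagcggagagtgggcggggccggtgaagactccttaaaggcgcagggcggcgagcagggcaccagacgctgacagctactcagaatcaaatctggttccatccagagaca

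The windows have the same base at 296 of 300 positions (98.7%), with a longest identical run of 201 bases. Counted from 1 at the 5′ end of the window, with the Hspa1a base first, the differences are C44T, T47C, T249G and C276T. Both hold GAAGATTC, 104 to 97 bases upstream of the start.

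The window of Dnajb1 (chr8:83607925-83608224, plus strand), in which the DMSO summit is base 264, held no exact match of these elements. Imperfect elements, and any outside the window, were not sought. Capitals here mark the CCAAT box, read as ATTGG on this strand.
Dnajb1: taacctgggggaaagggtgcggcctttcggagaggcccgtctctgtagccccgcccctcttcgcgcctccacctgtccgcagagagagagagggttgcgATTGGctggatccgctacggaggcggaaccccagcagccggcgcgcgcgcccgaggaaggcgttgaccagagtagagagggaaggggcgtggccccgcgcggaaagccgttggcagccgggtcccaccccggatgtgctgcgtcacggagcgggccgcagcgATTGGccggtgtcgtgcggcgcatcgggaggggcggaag

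In vehicle-treated cells most of these genes had a counted summit at 1 end, the start wherever the strand was known. At Hspa8 and Hsp90ab1 a further DMSO peak, with its summit outside the counting window, reached over the other end. Of the 10 genes, 8 held a DMSO summit, against 23.8% of all protein-coding genes (5215 of 21887) and 19.0% of those no longer than the longest member, Hsph1 (19.7 kb). The genes with a summit were Hspa5, Hspa8, Hsp90aa1, Hsp90ab1, Hspd1, Hspe1, Hsph1 and Dnajb1, with 1 summit each. Hspd1 and Hspe1 shared 1 peak, so the members held 7 peaks. Hspa1a and Hspa1b, the stress-inducible HSP70 genes, held none. In the treated list 1 of the 10 genes, Hspa5, held a summit, against 1.16% of protein-coding genes (254 of 21887).

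**Figure D1:**
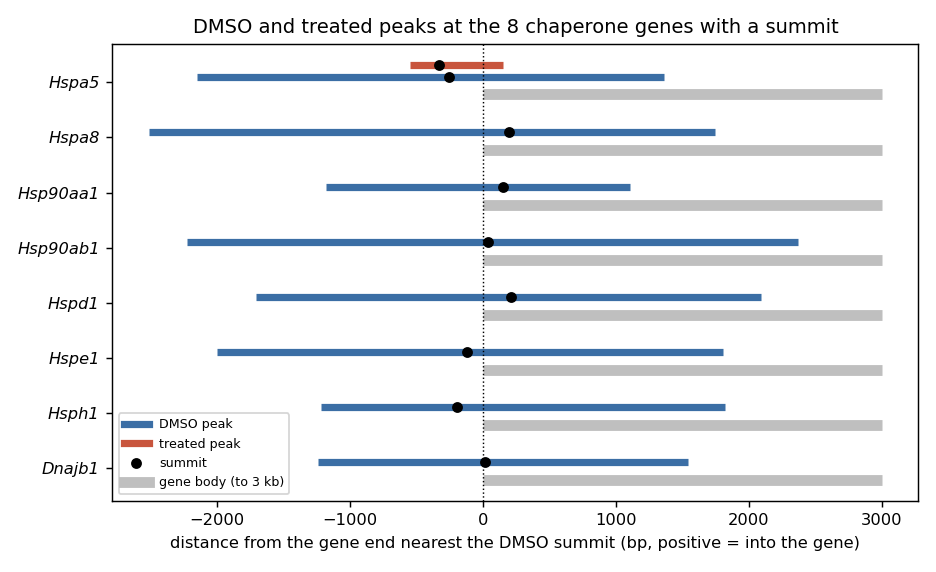
Peaks at the 8 members with a DMSO summit, by distance in bp from the gene end nearest the summit, with positive values running into the gene. Blue bars are DMSO peaks, the red bar is the treated peak, black points are summits and grey bars are gene bodies cut at 3 kb. Every blue bar spans the gene end, with its summit 13 to 258 bp from it.

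Within the HSP70 family, Hspa5 encodes BiP, the HSP70 of the endoplasmic reticulum (chromosome 2, 34772090 to 34776529). Its DMSO peak spanned 34769936 to 34773453, with a summit 258 bp upstream of the start and a fold enrichment of 20.6. The fold is the ratio of pull-down to background at the summit by the authors' caller, and 97.8% of DMSO peaks had a lower one. The summit lay 193 bp from the ER stress response element printed above. Hspa8 encodes HSC70, the constitutive cytosolic HSP70 (chromosome 9, 40801276 to 40805202). Its DMSO peak spanned 40798764 to 40803023, with a fold of 17.5, higher than that of 93.1% of the list, and a summit 196 bp inside the end of lower coordinate. A second DMSO peak (40805126 to 40808519, fold 10.5) overlapped the other end of Hspa8, but its summit lay 1.77 kb outside the gene and was not counted.

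Hspa1a (chromosome 17, 34969359 to 34972156) and Hspa1b (34956429 to 34959238) stand 10.1 kb apart and encode nearly the same protein, the HSP70 of the heat shock response. The DMSO peak nearest to both spanned 34947227 to 34953536 with a fold of 11.0. Its summit lay 3.65 kb from Hspa1b and 16.6 kb from Hspa1a, just outside the non-coding gene 1110038B12Rik. The nearest treated summits were 353 kb (Hspa1b) and 366 kb (Hspa1a) away. The neighbourhood was not bare of peaks, since 9 DMSO summits lay within 100 kb of each gene. Reads from stretches that these genes share cannot be placed in either, and the sources used here do not say how such reads were handled, so the part of this in the lack of peaks was not tested. Hspa1b was the member nearest outside the counting window, and Hspa5, at 258 bp, was the one nearest to its edge from within.

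HSP90 chaperones mature kinases and steroid receptors, and the 2 cytosolic genes differed in their peaks. Hsp90ab1, the constitutive form (chromosome 17, 45567778 to 45573261), had the DMSO peak of highest fold among the members, 21.7, above 98.4% of the list. This peak spanned 45570891 to 45575491, the widest among the members at 4601 bp, with a summit 40 bp inside the end of higher coordinate. The lncRNA gene Gm35399 begins beyond that end, with the summit 94 bp from it, so the peak cannot be given to 1 of these genes. A second DMSO peak, at Slc35b2 (45562224 to 45569252, fold 13.7), covered the other end of Hsp90ab1 with its summit 3.33 kb outside. Hsp90aa1, the inducible form (chromosome 12, 110691036 to 110696395), had a DMSO peak at 110695290 to 110697573 with a fold of 11.7, above 57.4% of the list. It was the narrowest among the members at 2284 bp, with a summit 147 bp inside the end of higher coordinate.

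Hspd1 and Hspe1 encode HSP60 and its lid HSP10, which form the folding chamber of mitochondria, and are transcribed in opposite directions from 1 shared promoter on chromosome 1. Their annotated bodies (55077833 to 55088243 and 55088148 to 55091317) overlap by 96 bp. A single DMSO peak at 55086150 to 55089954 covered both starts with a fold of 18.0, above 94.3% of the list. Its summit lay 119 bp upstream of the Hspe1 start, 97 bp upstream of the inner Hspd1 start and 214 bp downstream of the outer one. It was 30 bp from the 18-base heat shock element printed above, the shortest such distance among the members with an element and a summit. Because both genes share the peak, they are 1 observation and not 2.

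The co-chaperones completed the set. Hsph1 encodes HSP110, which exchanges the nucleotide of HSP70 (chromosome 5, 149616843 to 149636498). Its DMSO peak at 149634679 to 149637713 had a fold of 11.6, above 57.3% of the list, and a summit 361 bp upstream of the outermost start in the promoter table and 199 bp outside the annotated body. The heat shock elements of its window lay 328 and 397 bp from the summit. Dnajb1 encodes HSP40, a J-domain protein that hands clients to HSP70 (chromosome 8, 83608175 to 83612653). Its DMSO peak at 83606933 to 83609717 had a fold of 14.9, above 82.6% of the list, and its summit lay 13 bp downstream of the outermost start, the closest of all. The lncRNA gene Gm42029 ends 338 bp from this summit, on the far side of the start. The peak covers that end (83607850) as well, so it cannot be given to 1 of these genes.

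**Figure D2:**
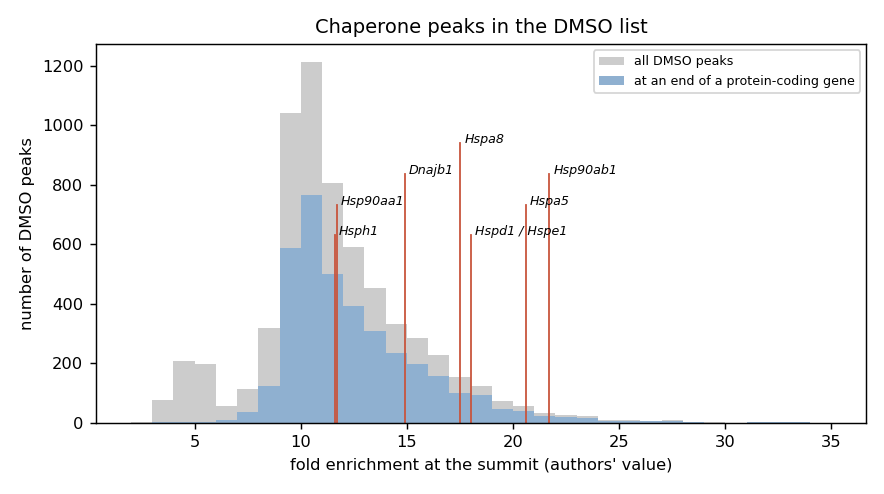
Number of DMSO peaks by fold enrichment, for all peaks (grey) and for those whose summit lies 1 kb or less from a protein-coding gene's end (blue). Red lines mark the 7 peaks of the members, which run from 11.6 to 21.7, all above the list's median of 11.0.

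The members' peaks stood high in the DMSO list, with Hsph1 and Hsp90aa1 near its middle. The 7 folds had a median of 17.5, against 11.0 for the whole list and 11.7 for the 3686 peaks (57.2% of the list) whose summit lay 1 kb or less from a protein-coding gene's end. In the list, 4 of the 7 peaks (Hsp90ab1, Hspa5, Hspd1 with Hspe1, and Hspa8) ranked above 90% of peaks. Widths ran from 2284 to 4601 bp with a median of 3518 bp, against 2855 bp for the list. The folds order Hspa8 far above Hsph1, but the coverage behind them did not. From each fold and p-value the number of pull-down fragments over the summit and the background term were recovered, as the caller's formulas allow.

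Hspa5 and Hsp90ab1 each had 88 fragments at the summit, with a 95% counting interval of 70.6 to 108. Hspd1 with Hspe1 had 73 (57.2 to 91.8), and Hspa8 and Hsph1 had 71 each (55.5 to 89.6). Hspa8 and Hsph1 thus had the same pull-down coverage, and their folds differed through the background term, 4.0 at Hsph1 and 2.32 at Hspa8. This term is in the caller's scaled coverage units, in which 1 DMSO pull-down fragment counts as 0.805, and not in fragments. Dnajb1 had 60 (45.8 to 77.2) and Hsp90aa1 had 47 (34.5 to 62.5), beside a median of 49 for all DMSO peaks. Neighbours in this order had overlapping intervals, whereas Hsp90aa1 lay below Hspa5 and Hsp90ab1 with no overlap. The intervals are exact Poisson intervals, cover counting error alone and describe the pooled libraries, not separate cultures. The background term was at the genome-wide value of 2.32 scaled units, below which the caller does not go, at 5 of the 7 peaks.

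**Figure D3:**
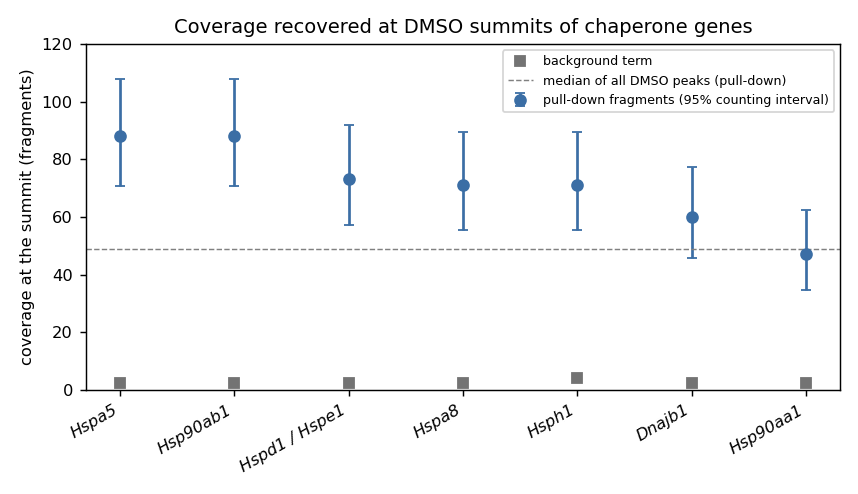
Coverage at the DMSO summits, with blue points for pull-down in fragments (bars are 95% exact Poisson intervals) and a dashed line at the pull-down median of all DMSO peaks, 49. Grey squares are the background term in scaled units, at 0.805 a pull-down fragment, so squares and points are not in the same unit although they share an axis. Hspa5 and Hsp90ab1 stand at 88 and Hsp90aa1 at 47, and the square of Hsph1, at 4.0, is the highest.

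The position at the start was shared with most peaks at genes. Among protein-coding genes with a DMSO summit and a promoter window, 87.0% (3741 of 4302) had one within 1 kb of an annotated start, as had the 5 members with a window. Over those 3741 genes the summit lay upstream of the start in 65.1%, with a median of −136 bp and quartiles of −364 and 117 bp. The summits of Hspa5 (−258 bp), Hspe1 (−119 bp) and Hsph1 (−361 bp) fell between these quartiles, as did Dnajb1 at 13 bp. For Hspd1 it was −97 bp from the inner start, between the quartiles, and 214 bp from the outer start, beyond the upper one.

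The share of genes with a DMSO summit was higher in groups with more CpG dinucleotides at the promoter, and 5 of the 8 members with a summit could be placed in these groups. The window held a median of 24 CpG dinucleotides in the 4302 genes with a DMSO summit and 8 in the 13190 without one, and the median GC content was 63.7% and 53.3%. With genes ordered by CpG number in 5 equal groups, the share with a DMSO summit was 2.29%, 8.06%, 24.0%, 39.1% and 49.5% from the lowest to the highest. Hspd1 (39 CpG), Hspe1 (36) and Dnajb1 (36) were in the highest group, and Hspa5 (25) and Hsph1 (19) in the next. Hspa1a (15) and Hspa1b (16) were in the middle group. These 5 members with a summit, which hold 4 peaks, thus came from groups in which 39.1% and 49.5% of genes had one, and 23.8% is a low background for them. Hspa8, Hsp90aa1 and Hsp90ab1 have no window here and were not placed.

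**Figure D4:**
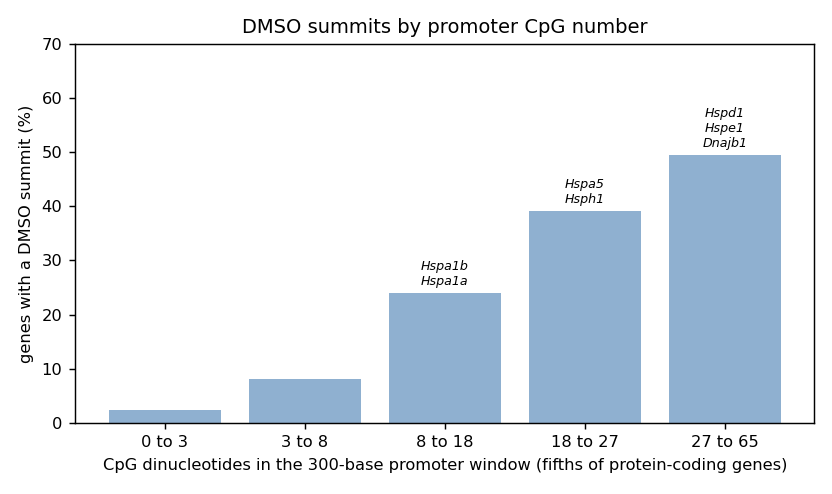
Share of protein-coding genes with a DMSO summit, in percent, in 5 equal groups by the number of CpG dinucleotides in the 300-base window, with members named above their group. The share rises from 2.29% to 49.5%, and Hspa1a and Hspa1b stand in the middle group, at 24.0%.

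Among genes at large, the share with a DMSO summit was not higher where the window held a heat shock element, and it was higher where it held an ER stress response element. Of the 84 genes whose window held the 3-unit element, 20.2% (17 genes) had a DMSO summit, against 24.6% of the other windows. For the 2-unit matches the shares were 16.7% (GAANNTTC) and 20.2% (TTCNNGAA). Of the 28 genes whose window held the ER stress response element, Hspa5 among them, 39.3% (11 genes) had a DMSO summit, against 24.6% of the other windows. The share also differed by other short matches. It was 38.9% with a GC box (GGGCGG) and 12.3% without, and 28.0% with CCAAT and 22.4% without. With a TATA box (TATAAA) it was 10.2%, and 26.8% without. The windows compared were not matched for CpG number or GC content. These are descriptions without a test, and a match of letters is not a bound site.

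The lone treated peak of the members was at Hspa5 and lay inside its DMSO peak. It spanned 34771541 to 34772242 (702 bp), and its summit was 334 bp upstream of the start and 76 bp from the DMSO summit. Its fold was 5.02, above 32.2% of the treated list, and its −log10 q was 3.57, above 2.24% of that list. It had 36 fragments at the summit (counting interval 25.2 to 49.8), where the lowest of any treated peak was 35, so it stood at the edge of the list. Treated folds are not set against DMSO folds here, since the lists differ in background and threshold.

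A high DMSO fold went with a treated peak in part. Of all DMSO peaks, 2.90% (187 of 6444) overlapped a treated peak. Of the 140 with a fold at least that of Hspa5, 42.1% (59) did, and of the 102 with at least that of Hsp90ab1, 50 did. Hsp90ab1 itself met none, and its nearest treated summit was 1940 kb away. For Hspd1, Dnajb1 and Hsph1 the nearest treated summits were 129, 144 and 432 kb away, and for Hsp90aa1 and Hspa8 they were 5660 and 37700 kb away.

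Beyond the 10 genes, chaperones and their partners held DMSO summits in varying measure. In 87 further genes in 9 lists, 49 (56.3%) held a DMSO summit, against 23.8% of protein-coding genes. These 87 genes were not placed in the groups by promoter CpG number, over which that share ran from 2.29% to 49.5%, so 23.8% may be a low background for them too. A treated summit was held by 3 of the 87 genes, against 1.16% of protein-coding genes and 3.60% of those with a DMSO summit. Genes of the endoplasmic reticulum and its stress response had summits in 14 of 17 cases. The 3 highest were Ddit3, a transcription factor gene of that response (fold 20.5), Atf4, which acts upstream of it (18.3), and P4hb, a disulphide isomerase gene (18.0). Hsp90b1, the HSP90 of the same compartment, had a fold of 17.8, and Trap1, the mitochondrial HSP90, had no summit.

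Of the other HSP70 genes 6 of 10 had a DMSO summit, the highest at Hspa4l (14.1), an HSP110 relative, Hspa9 (13.9), the mitochondrial HSP70, and Hspa2 (13.7), best known from the testis. Hspa1l, the neighbour of Hspa1a, had none. J-domain genes had summits in 9 of 16 cases (highest Dnajb4, 13.5, Dnajb5, 12.7, and Dnajb2, 11.5). The TRiC chaperonin, which folds actin and tubulin, had them at 5 of 8 subunit genes (highest Tcp1, 14.4, Cct3, 13.9, and Cct6a, 12.2). Co-chaperone genes had them in 9 of 18 cases, highest at Stip1 (18.6), which links HSP70 to HSP90, at St13 (15.8), and at Bag1 and Stub1 (15.6 each), a nucleotide exchange factor and a ubiquitin ligase. Ubb (14.9), a polyubiquitin gene, and Serpinh1 (11.0), the gene of the collagen chaperone, both had one (2 of 2).

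Small heat shock protein genes and heat shock factor genes were near the background, at 2 of 9 (Hspb6 and Hspb8, 10.5 each) and 1 of 5 (Hsf1, 9.53). Targets of heat shock factor 1 were found on both sides. Hspb1 and Bag3, named after their values were seen, had no summit, while Ubb and Serpinh1, listed as further targets of this factor, had one each.

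**Figure D5:**
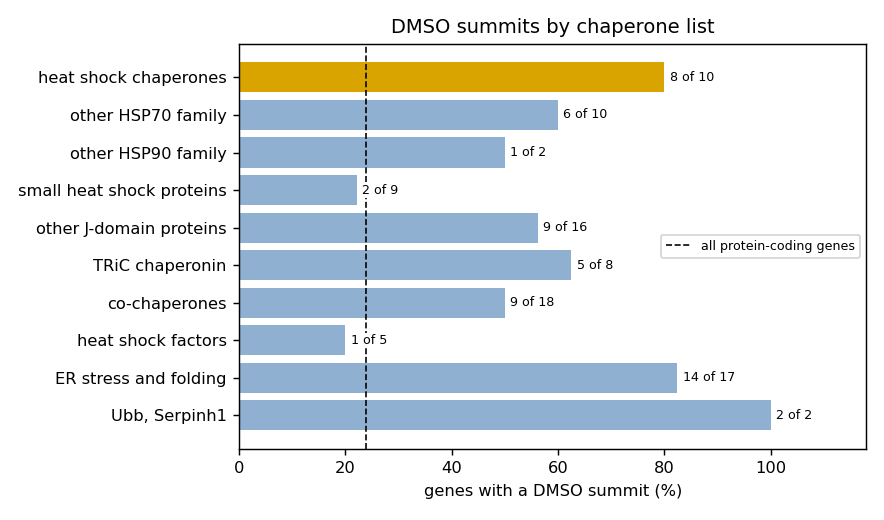
Share of genes with a DMSO summit, in percent, in the 10 heat shock chaperone genes (yellow) and 9 further lists (blue), with the counts beside the bars and a dashed line at the 23.8% of all protein-coding genes. The members stand at 8 of 10 and the endoplasmic reticulum list at 14 of 17, while small heat shock proteins (2 of 9) and heat shock factors (1 of 5) lie beside the line. The line is not matched to the lists for promoter CpG number.

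The 3 treated summits in these lists were at Stip1, Ddit3 and Cct7, a TRiC subunit gene. Stip1 had the highest treated fold (6.13, above 86.2% of the treated list), with its summit 602 bp from the DMSO summit. Ddit3 and Cct7 each had 4.85, above 26.5% of that list, with summits 274 and 437 bp from the DMSO summits. As at Hspa5, each of these treated peaks lay inside a DMSO peak. Of the 254 protein-coding genes with a treated summit, 74.0% had a DMSO summit too, and of the 5215 with a DMSO summit, 3.60% had a treated one.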

How the data were processed

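Each deposited file is the peak list of 1 condition, called on pooled pull-downs against pooled inputs, per the peak names. Per the submitters' processing notes, the build was mm10 and the tools included STAR 2.5.2a, Picard 1.141 and MACS2 2.1.0; their settings, and how peaks were selected for deposit, are not stated there. Each deposited peak carries a fold enrichment (a ratio), −log10 p and −log10 q values, and a score, which in 100% of peaks is the whole part of 10 times the −log10 p. All are the authors' values.

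Summits were the peak start plus the offset, counted from 1. Gene positions came from a RefSeq table of GRCm38.p6 on 21 chromosomes, and strand from the promoter windows. Peaks were ranked within their own list. Coverage was recovered by inverting fold (pileup plus 1 over background plus 1) and the Poisson p. Solutions had to give a whole number of fragments, to within 0.02 in scaled coverage, at 0.805 (DMSO) or 0.439 (treated) units a fragment, which 100% of peaks did. In 2 DMSO and 16 treated peaks a further solution met this limit and the nearest was taken. The procedure was tested on data simulated with the same formulas. That test covers the inversion alone and cannot show that the formulas hold for the deposited peaks. Total depth is unknown, so precision is given as counting intervals alone.

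All 10 members are described, and of the further lists the genes with a treated summit and up to 3 with the highest DMSO fold, plus Trap1, Hspa1l, Hspb1 and Bag3, which were chosen after their values were seen. A gene of the lists is not reported here. The members and lists were chosen with earlier results of these data known. Software was Python 3.11.15 with SciPy 1.17.1, NumPy 2.4.6, pandas 2.3.3 and Matplotlib 3.10.9.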

Additional observations from a re-analysis of the deposited data

How the results depend on the processing

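The count of 8 members with a DMSO summit was 9 with 10 kb on each side and 8 when whole peaks were used in place of summits or when peaks at or above the list's median fold or median −log10 q were kept. It was 5 within gene bodies alone, since the summits at Hspa5, Hspe1 and Hsph1 lie outside the body. The treated count of 1 was 0 within gene bodies, 0 at −log10 q of at least 5 and 0 in the upper part of the list by fold (the median or more), and it was 1 under the other settings. The share of protein-coding genes with a DMSO summit, 23.8%, was 19.0% in genes no longer than the longest member, 13.2% with no flank and 29.9% with 10 kb. The treated share of 1.16% was 0.816%, 0.758% and 1.78% under these settings. The median rank of the members' 7 peaks, above 93.1% of the DMSO list by fold, was 91.4% among peaks at gene ends, 92.5% outside a dense region of chromosome 15, 92.1% by −log10 q and 73.8% by width. No paired analysis was possible because the files hold pooled lists with no value per replicate, and leaving out a replicate could not be done for the same reason. At least 35 pull-down fragments stood at the summit of every peak, which is the lowest count recovered and not a limit of detection. Sites below that were not seen. Calls also depended on the background term, so sites with more fragments could be missing too.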
